A study of Mus musculus with 14 samples.

Results

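Activating transcription factor 4 (ATF4) and the unfolded protein response were described through 10 genes, Atf4, Ddit3, Asns, Trib3, Chac1, Sesn2, Psat1, Phgdh, Hspa5 and Xbp1, taken by symbol from a deposited table of 35275 mouse genes. All 10 were present, each as 1 row. The samples were KMF cells, an aggressive ovarian carcinoma line obtained from ID8 cells by passage in C57Bl6 mice, and 4 lines made from a single KMF clone, KT13, in which CRISPR/Cas9 editing of Ptk2 had left no identified allele predicted to encode full focal adhesion kinase (FAK). KMF (n = 3) was unedited, and FAK KO (n = 3) was the KT13 clone itself. FAK-WT (n = 3) was KT13 with GFP-FAK returned by lentivirus, FAK-R454 (n = 2) was KT13 with a GFP-FAK that lacks kinase activity, and β-catenin ΔGSK (n = 3) was KT13 with an active β-catenin from which the GSK3β phosphorylation sites had been removed, given by retrovirus. All 4 edited lines descend from 1 clone, so a difference between KMF and any of them cannot be told apart from one between KMF and that clone. The lines given FAK or β-catenin had also passed drug selection and enrichment by flow cytometry. All 14 samples were poly(A) RNA from tumorspheres grown for 5 days. The comparisons ask which transcripts changed with loss of FAK, which returned with FAK or its kinase activity, and which returned with active β-catenin.

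ATF4 is the main transcription factor of the integrated stress response. Kinases that sense misfolded protein in the endoplasmic reticulum (ER), scarce amino acids, viral RNA or heme deficiency phosphorylate the initiation factor eIF2α, which lowers general translation while Atf4 mRNA is translated more. ATF4 then raises genes of amino acid uptake, serine and asparagine synthesis and tRNA charging, and with CHOP (Ddit3) genes of cell death. The other arms of the unfolded protein response run through IRE1, which splices Xbp1 mRNA, and ATF6, and they raise chaperones such as BiP (Hspa5). The deposited values are in FPKM, fragments scaled to transcript length and library size. They measure the total mRNA of a gene, and so show neither the translation of Atf4 nor the splicing of Xbp1.

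Short elements through which these arms act on DNA were found in the promoter windows of 4 members, and 3 of those windows are shown. Windows from 250 bases before to 50 bases after the RefSeq start of transcription (GRCm38.p6) were found for 10 of 10 members, 11 windows in all because Psat1 has 2, and were searched on both strands. The C/EBP-ATF response element, TGATGNAA, was in 3 of the 10 members, Asns, Trib3 and Chac1, and in 3.97% of all 32851 windows. The ER stress response element, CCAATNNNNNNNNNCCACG, was in 1 member, Hspa5, and in 0.119% of windows. The motifs TGACGTCA (cAMP response element) and TGACGTGG (unfolded protein response element) were in none of the members' windows and in 1.79% and 0.676% of all windows. None of these 4 motifs overlapped another in the members. A match is a description of the letters, and the lack of one says only that these letters are not in this window. The sequences below run 5′ to 3′ on the gene's strand, end at the base before the start, and have the matched element in capitals. The Asns element lies at position -23 from the start and that of Hspa5 at -65. The Chac1 element lies at -193 and reads on the opposite strand. In Trib3 it reads TTACATCA, also on the opposite strand, and lies 14 bases past the start.
Asns, chr6:7693210-7693369, minus strand: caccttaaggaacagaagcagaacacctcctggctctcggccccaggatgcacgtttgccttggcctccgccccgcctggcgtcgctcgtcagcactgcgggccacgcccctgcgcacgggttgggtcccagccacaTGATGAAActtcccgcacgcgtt
Chac1, chr2:119350992-119351241, plus strand: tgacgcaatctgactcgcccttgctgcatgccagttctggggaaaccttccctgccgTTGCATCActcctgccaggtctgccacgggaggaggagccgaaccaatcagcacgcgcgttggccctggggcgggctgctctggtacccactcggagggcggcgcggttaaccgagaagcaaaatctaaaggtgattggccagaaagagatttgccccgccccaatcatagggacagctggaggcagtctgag
Hspa5, chr2:34771930-34772089, plus strand: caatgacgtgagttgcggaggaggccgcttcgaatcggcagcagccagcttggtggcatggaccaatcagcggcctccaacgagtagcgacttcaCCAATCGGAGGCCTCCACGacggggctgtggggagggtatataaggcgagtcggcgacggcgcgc

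Libraries held 25390558 to 35289859 fragments assigned to genes. A member held between 234 (Chac1) and 32565 fragments (Hspa5) in a library. Transcripts of Ptk2, which encodes FAK, were at 17.6 to 20.5 FPKM in FAK KO, 23.9 to 24.8 in KMF, 42.3 to 45.4 in FAK-WT and 59.2 to 65.5 in FAK-R454, so the edited clone still made the mRNA and both rescue lines held more of it. Ctnnb1, which encodes β-catenin, was at 207 to 223 FPKM in β-catenin ΔGSK, 195 to 207 in KMF and 140 to 149 in FAK KO. The epithelial and mesothelial markers Krt8, Krt18, Krt19, Wt1 and Msln were expressed in all 14 libraries, while Krt7 and Lhx9 stayed at or below 0.42 FPKM. Mean Krt8 was 569 FPKM in FAK-WT, 317 in FAK KO and 181 in β-catenin ΔGSK. Mean Wt1 was 227 FPKM in β-catenin ΔGSK and 97.8 in FAK KO. The part of these marker differences in the results was not tested. The mesothelial marker Upk3b was at 31.1 to 32.0 FPKM in FAK-R454 and at 3.27 to 9.40 in the other lines, and its part in the results for FAK-R454 was not tested. Of the leukocyte markers, Ptprc was at 0 in 13 of 14 libraries, Cd3e was at 0 in all 14, and Cd68 was at 1.05 to 12.3 FPKM. FAK-WT replicate 3 stood apart from the other two FAK-WT libraries (mean chi-square per gene of 46.8 and 33.6 against 3.33 between the other pair), as did KMF replicate 3 (26.2 and 31.9 against 4.92). FAK-WT replicate 3 was also the lowest of its line for 9 of the 10 members and had the most Cd68, a macrophage and lysosome gene (12.3 FPKM, against 6.60 and 6.97 in the other two). FAK-R454 replicate 2 was below replicate 1 for all 10 members, and FAK KO replicate 1 was the lowest of its line for 7. Because FAK-WT replicate 3 stood apart, the members' values for FAK-WT are given with and without it. FAK KO replicate 1 (24.5 and 12.4 against 8.85) and β-catenin ΔGSK replicate 1 (19.7 and 33.2 against 9.46) also differed from the other pair of their lines. In these lines that other pair was itself further apart than in FAK-WT and KMF.

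Lines were compared in pairs with limma on log2(FPKM + 0.1), over the genes with a mean above 1 FPKM in either line. Higher and lower stand for an adjusted p (Benjamini-Hochberg, over all genes tested) under 0.05, at any fold. All 10 members passed the filter in each comparison. The labels call the RNA samples of all lines independent, the methods only those of KMF, and p-values measure only the spread between samples, which may be technical. In bulk RNA, fewer cells of a kind and less RNA per cell cannot be told apart. The 4 comparisons with FAK KO share the same 3 FAK KO samples, so their results are not independent of each other.

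**Figure D1:**
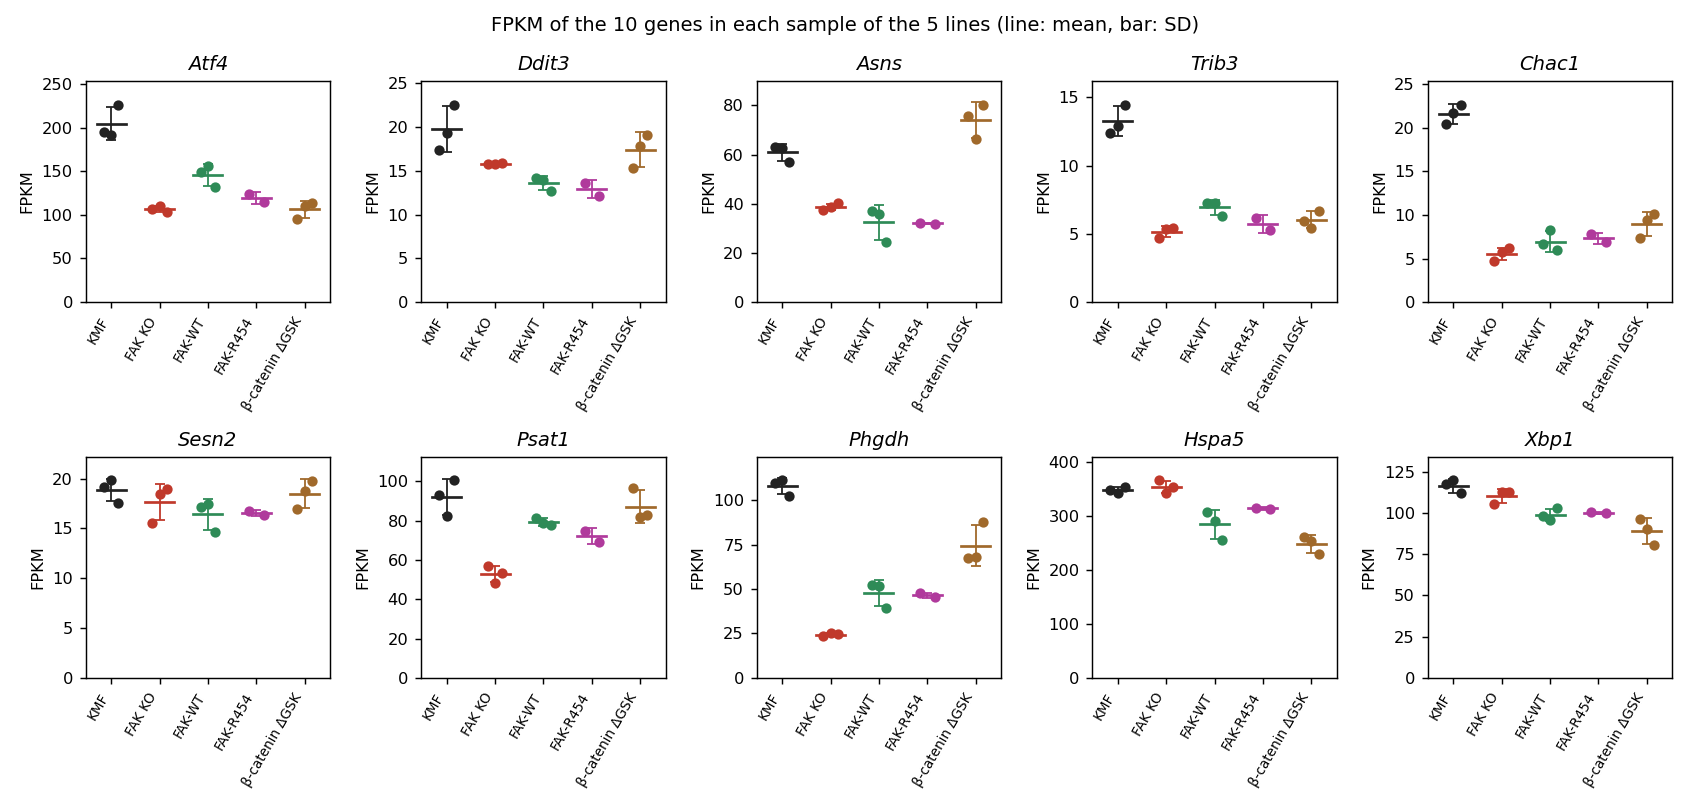
Expression of the 10 genes in FPKM (y axis, from 0) in each sample (points) of the 5 lines (x axis), with the mean (horizontal line) and SD (bar). KMF lies above every other line for Atf4, Trib3, Chac1 and Phgdh, the mean of β-catenin ΔGSK is highest for Asns and lowest for Hspa5, and Sesn2 overlaps in all neighbouring lines.

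The transcription factors came first. Atf4 mRNA was 1.91-fold higher in KMF than in FAK KO, and of the lines made from the clone only FAK-WT was called above FAK KO. Atf4 (ENSMUSG00000042406, chromosome 15, 80255184 to 80257540) was at 195, 192 and 226 FPKM in KMF, 107, 110 and 103 in FAK KO, 150, 156 and 131 in FAK-WT, 124 and 114 in FAK-R454, and 94.7, 110 and 114 in β-catenin ΔGSK. KMF, FAK-WT, FAK-R454 and FAK KO followed each other in this order without overlap, and β-catenin ΔGSK overlapped FAK KO. The log2 fold change of KMF over FAK KO was 0.93 (standard error 0.08, adjusted p = 2.70e-05 from limma) and that of FAK-WT over FAK KO was 0.44 (standard error 0.08, adjusted p = 0.00308), or 0.52 without FAK-WT replicate 3. FAK-R454 lay 0.16 above FAK KO with an adjusted p of 0.121 from limma, and for β-catenin ΔGSK the log2 difference was -0.01 with a 95% interval of -0.19 to 0.17. In FAK-WT over FAK KO, the 479 tested genes of chromosome 15 had a median log2 fold change 0.39 above that of the other chromosomes, and when each gene was set against its chromosome the value of Atf4 fell to 0.14 (adjusted p = 0.147 from limma). The chromosome's shift was 0.18 in FAK-R454, 0.11 in KMF and 0.10 in β-catenin ΔGSK over FAK KO, and the KMF value of Atf4 remained called, at 0.87 after that centring. The FAK-R454 value of Atf4 was 0.0004 after it (adjusted p = 0.998 from limma).

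Ddit3 encodes CHOP, a factor that ATF4 raises and that favours cell death under lasting ER stress. Ddit3 (ENSMUSG00000025408, chromosome 10, 127290774 to 127296288) was at 17.3, 19.3 and 22.5 FPKM in KMF, 15.7, 15.8 and 15.9 in FAK KO, 14.2, 13.9 and 12.7 in FAK-WT, 13.6 and 12.2 in FAK-R454, and 15.3, 17.9 and 19.1 in β-catenin ΔGSK. The KMF samples lay above and the FAK-WT and FAK-R454 samples below those of FAK KO, while β-catenin ΔGSK overlapped FAK KO and was called higher only without its replicate 1 (0.23, adjusted p = 0.022 from limma). These differences were small. The log2 fold change over FAK KO was 0.31 for KMF (adjusted p = 0.0221), -0.22 for FAK-WT (adjusted p = 0.0324) and -0.29 for FAK-R454 (adjusted p = 0.0288, limma). The KMF call was lost without KMF replicate 2 or any 1 FAK KO sample (adjusted p from 0.0502 to 0.0601), the FAK-WT call without any 1 of its 3 samples or without FAK KO replicate 1 or 3 (0.0534 to 0.111), and the FAK-R454 call without either of its samples or FAK KO replicate 3 (0.097 to 0.27). Chromosome centring also lost both rescue calls, at -0.10 in FAK-WT and -0.23 in FAK-R454. Limma-voom on recovered fragments lost them at values of -0.22 and -0.30. Both were lost as well with 1 fit of 5 lines and with the replicate block. Without FAK-WT replicate 3 the FAK-WT value was -0.17 (adjusted p = 0.0665 from limma).

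Xbp1 (ENSMUSG00000020484, chromosome 11, 5520659 to 5525893), whose spliced mRNA encodes the factor of the IRE1 arm, was at 118, 120 and 112 FPKM in KMF, 105, 113 and 113 in FAK KO, 98.0, 95.7 and 103 in FAK-WT, 101 and 99.8 in FAK-R454, and 96.2, 90.3 and 80.7 in β-catenin ΔGSK. Only β-catenin ΔGSK was called different from FAK KO, its log2 fold change being -0.31 (standard error 0.08) with a limma adjusted p of 0.00757. FAK-WT and FAK-R454 also had all samples below FAK KO, at log2 fold changes of -0.16 (adjusted p = 0.0708) and -0.14 (adjusted p = 0.148, limma). Without FAK-WT replicate 3 the FAK-WT difference was called (-0.19, adjusted p = 0.039 from limma), and with chromosome centring KMF was called above FAK KO (0.17, adjusted p = 0.0472).

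Feedback and redox effectors of ATF4 set KMF apart from the clone. Chac1, which degrades glutathione, and Trib3, a pseudokinase that restrains ATF4 and CHOP, were 3.86-fold and 2.54-fold higher in KMF than in FAK KO, and every sample of the clone-derived lines lay below every KMF sample. Chac1 (ENSMUSG00000027313, chromosome 2, 119351229 to 119354381) was at 20.4, 21.7 and 22.6 FPKM in KMF and 4.75, 5.72 and 6.15 in FAK KO. It was at 6.62, 8.26 and 5.93 in FAK-WT, 7.79 and 6.85 in FAK-R454 and 7.38, 9.43 and 10.1 in β-catenin ΔGSK. The FAK-R454 and β-catenin ΔGSK samples lay above all of FAK KO, and FAK-WT overlapped it. The log2 fold change of Chac1 over FAK KO was 1.95 in KMF (standard error 0.10, adjusted p = 2.27e-06) and 0.68 in β-catenin ΔGSK (standard error 0.14, adjusted p = 0.00294, limma). It was 0.31 in FAK-WT (adjusted p = 0.101) and 0.40 in FAK-R454 (adjusted p = 0.0539, limma), and the FAK-WT value was called without replicate 3 (0.42, adjusted p = 0.0427) and with chromosome centring (0.48, adjusted p = 0.0308). The FAK-R454 value was called with chromosome centring (0.49, adjusted p = 0.0306), median-of-ratios scaling (0.42, adjusted p = 0.0457) and limma-voom on recovered fragments (0.41, adjusted p = 0.0498). It was also called with the replicate block (0.48, adjusted p = 0.0124) and without FAK KO replicate 2 (0.43, adjusted p = 0.0289, limma).

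Trib3 (ENSMUSG00000032715, chromosome 2, 152337422 to 152344032) was at 12.4, 12.9 and 14.5 FPKM in KMF, 4.71, 5.36 and 5.41 in FAK KO, 7.26, 7.26 and 6.29 in FAK-WT, 6.17 and 5.25 in FAK-R454, and 5.93, 5.46 and 6.69 in β-catenin ΔGSK. Besides KMF (log2 fold change 1.34, standard error 0.09, adjusted p = 7.58e-06), only FAK-WT was called above FAK KO (0.42, standard error 0.09, adjusted p = 0.01, limma), and its 3 samples did not overlap FAK KO. Without FAK-WT replicate 3 that value was 0.49. β-catenin ΔGSK also had all samples above FAK KO, with a log2 fold change of 0.22 and an adjusted p of 0.101 from limma. It was called with median-of-ratios scaling (0.30, adjusted p = 0.038) and with chromosome centring (0.28, adjusted p = 0.0436, limma). Sesn2 (ENSMUSG00000028893, chromosome 4, 132492032 to 132510501), which encodes sestrin 2, a stress-induced brake on mTORC1, stayed between 14.6 and 19.8 FPKM over all 14 samples. None of its differences was called by limma, and those over FAK KO ran from -0.10 in FAK-WT (95% interval -0.33 to 0.12; -0.02 without replicate 3) to 0.10 in KMF (-0.11 to 0.30).

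The enzymes of amino acid synthesis gave the most widely shared change. Phgdh and Psat1, which catalyse the first steps of serine synthesis from a glycolytic intermediate, were called higher than in FAK KO in all 4 other lines, whereas Asns, which makes asparagine, was higher only in KMF and β-catenin ΔGSK. Phgdh (ENSMUSG00000053398, chromosome 3, 98313170 to 98339990) was at 109, 111 and 103 FPKM in KMF and 23.3, 25.2 and 24.4 in FAK KO. It was at 52.1, 51.6 and 39.3 in FAK-WT, 47.5 and 45.3 in FAK-R454 and 67.2, 68.0 and 87.9 in β-catenin ΔGSK. The lines fell in the order KMF, β-catenin ΔGSK, FAK-WT, FAK-R454 and FAK KO, and of these neighbours only FAK-WT and FAK-R454 overlapped. The log2 fold change over FAK KO was 2.14 in KMF (standard error 0.06, adjusted p = 1.59e-07), 1.60 in β-catenin ΔGSK (standard error 0.10, adjusted p = 3.99e-06), 0.96 in FAK-WT (standard error 0.11, adjusted p = 4.65e-04) and 0.93 in FAK-R454 (standard error 0.07, adjusted p = 1.35e-04, limma). KMF genes on chromosome 3 had a median 0.27 above the others, and with each gene set against its chromosome the KMF value of Phgdh was 1.90. The FAK-WT value was 1.09 without FAK-WT replicate 3.

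Psat1 (ENSMUSG00000024640, chromosome 19, 15904678 to 15947337) was at 93.1, 82.6 and 100.5 FPKM in KMF, 56.8, 48.5 and 53.5 in FAK KO, 81.4, 78.6 and 78.0 in FAK-WT, 74.9 and 69.4 in FAK-R454, and 96.7, 81.8 and 82.9 in β-catenin ΔGSK. FAK KO lay below all the samples of the other lines. The log2 fold change was 0.80 in KMF (adjusted p = 1.59e-04), 0.72 in β-catenin ΔGSK (adjusted p = 1.65e-04), 0.59 in FAK-WT (adjusted p = 6.44e-04, and 0.60 without replicate 3) and 0.45 in FAK-R454 (adjusted p = 0.00780, limma). The FAK-R454 call was lost without its replicate 1 (0.39, adjusted p = 0.113).

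Asns (ENSMUSG00000029752, chromosome 6, 7675169 to 7693254) was at 63.0, 62.5 and 56.9 FPKM in KMF, 37.5, 38.5 and 40.1 in FAK KO, 37.1, 35.9 and 24.3 in FAK-WT, 32.2 and 31.9 in FAK-R454, and 75.8, 66.1 and 80.2 in β-catenin ΔGSK. β-catenin ΔGSK lay above KMF, and both above FAK KO, without overlap. Over FAK KO, Asns changed on the log2 scale by 0.93 in β-catenin ΔGSK (standard error 0.08, adjusted p = 2.18e-05), 0.65 in KMF (standard error 0.07, adjusted p = 8.16e-05) and -0.27 in FAK-R454 (standard error 0.06, adjusted p = 0.0216, limma). The FAK-R454 call was lost without FAK KO replicate 3 (-0.24, adjusted p = 0.109 from limma). With all samples kept it was lost in 1 fit of 5 lines (adjusted p = 0.194), with the replicate block (0.177) and with no trend (0.0503, limma). Without its replicate 1 or 2 the FAK-R454 value was -0.28 or -0.26. In FAK-WT the value was -0.28 (adjusted p = 0.152 from limma), and it was -0.08 without replicate 3, which had the lowest Asns of all samples.

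The ER chaperone was called lower than in FAK KO in FAK-WT and β-catenin ΔGSK. Hspa5 encodes BiP, the abundant chaperone of the ER lumen that binds the stress sensors, and it had the highest FPKM of the members in each line. Hspa5 (ENSMUSG00000026864, chromosome 2, 34771970 to 34776531) was at 348, 341 and 353 FPKM in KMF, 366, 343 and 354 in FAK KO, 307, 290 and 255 in FAK-WT, 315 and 312 in FAK-R454, and 260, 253 and 229 in β-catenin ΔGSK. KMF and FAK KO overlapped, and the 8 samples of the other 3 lines were all lower. β-catenin ΔGSK was 1.43-fold below FAK KO (log2 fold change -0.52, standard error 0.07, adjusted p = 2.37e-04) and FAK-WT 1.25-fold (-0.32, standard error 0.08, adjusted p = 0.0155, limma). For FAK-R454 the value was -0.17 (adjusted p = 0.0772, and 0.0254 without FAK KO replicate 2) and for KMF -0.03, with a 95% interval of -0.17 to 0.11 (limma). The FAK-WT call was lost without FAK KO replicate 3 (-0.32, adjusted p = 0.0588) and with chromosome centring (-0.15, adjusted p = 0.177), and without FAK-WT replicate 3 it was -0.25 (adjusted p = 0.015, limma). The β-catenin ΔGSK call was kept in every alternative that tested for a change at any fold.

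**Figure D2:**
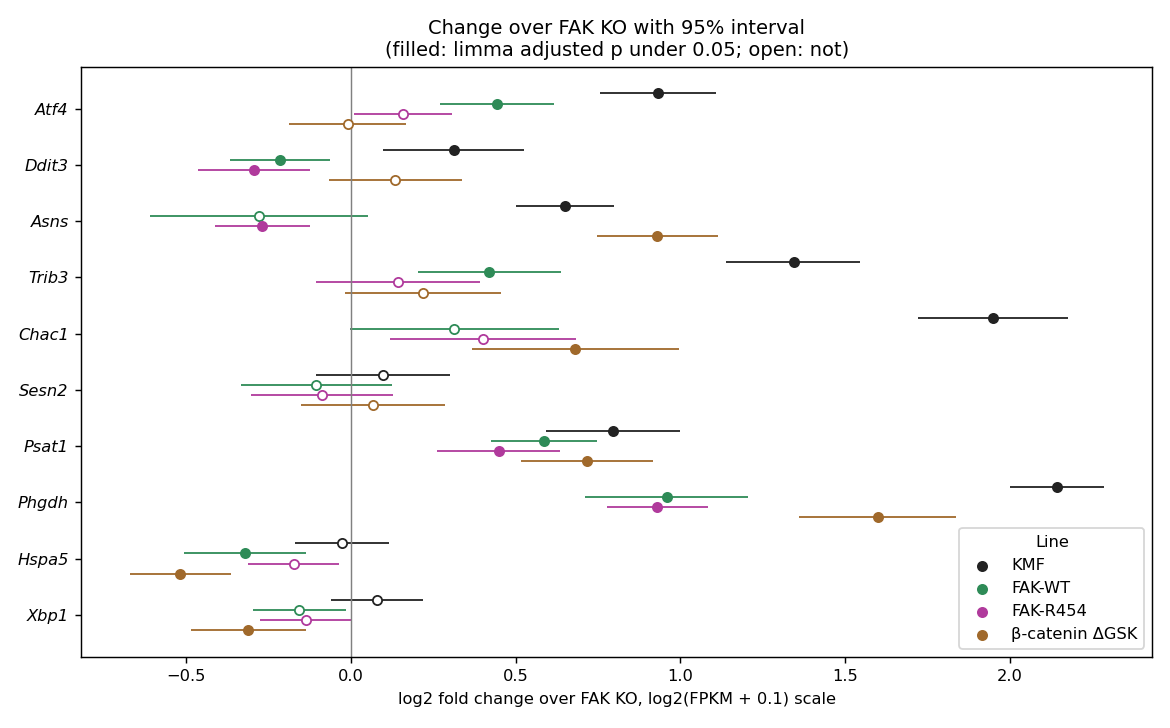
Log2 fold change over FAK KO on the log2(FPKM + 0.1) scale (x axis) of the 10 genes (y axis) in 4 lines, with 95% intervals from limma. Filled points had an adjusted p under 0.05 and open points did not. Phgdh and Psat1 lie to the right of 0 in all 4 lines, and the leftmost point is Hspa5 in β-catenin ΔGSK.

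Counted together, 7 members were higher and 0 lower in KMF than in FAK KO, where 23.1% of the 11893 genes tested were called higher and 28.7% lower. At least 2-fold changes were seen for 3 members (Trib3, Chac1 and Phgdh), against 8.01% of all genes tested in either direction, and Psat1 passed 2-fold with chromosome centring (1.05). In FAK-WT over FAK KO, 4 members were higher (Atf4, Trib3, Psat1 and Phgdh) and 2 lower (Ddit3 and Hspa5), against 15.6% and 25.2% of 11841 genes, and 0 changed 2-fold, against 4.62%. Phgdh passed 2-fold there without FAK-WT replicate 3 (1.09), with chromosome centring (1.08) and with median-of-ratios scaling (1.03). In FAK-R454 over FAK KO, 2 were higher (Psat1 and Phgdh) and 2 lower (Ddit3 and Asns), against 9.78% and 9.89% of 11818 genes, and again 0 changed 2-fold, against 2.74%. In β-catenin ΔGSK over FAK KO, 4 were higher (Asns, Chac1, Psat1 and Phgdh) and 2 lower (Hspa5 and Xbp1), against 23.7% and 34.4% of 11915 genes, and only Phgdh changed 2-fold, against 12.1%. Asns also passed 2-fold there with chromosome centring (1.13), with median-of-ratios scaling (1.01) and without β-catenin ΔGSK replicate 2 (1.01). In FAK-WT and β-catenin ΔGSK, members were called lower no more often than all genes were. With median-of-ratios scaling the split of all called genes moved from 1851 higher and 2986 lower to 2398 and 2043 in FAK-WT, and from 2828 and 4100 to 3447 and 3361 in β-catenin ΔGSK, and the members called then were 4 higher and 1 lower in FAK-WT and 5 and 2 in β-catenin ΔGSK. Without KMF replicate 3 the same number, 7 members, was called in KMF, where 2818 of 11910 genes were higher and 3439 lower. Without FAK-WT replicate 3, 5 were higher and 2 lower in FAK-WT, where 1981 of 11852 genes were higher and 2621 lower. In FAK-WT, Cd68 made up the whole summed level of the leukocyte markers (6.60 to 12.3 FPKM, 2.79 to 3.15 in FAK KO), and its part in these results was not tested. The summed epithelial and mesothelial markers were also higher in FAK-WT (1569 to 1809 FPKM, 1068 to 1250 in FAK KO), and their part was not tested either.

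The direct comparison of FAK-WT with FAK-R454, whose returned FAK differs in kinase activity, gave 0 members called higher and 0 lower by limma, where 3.38% of 11782 genes were higher and 4.44% lower, and 1.44% changed 2-fold. They are separate transduced lines that also differed in Ptk2 and Upk3b mRNA, so kinase activity cannot be told apart from other differences between them. Limma-voom on recovered fragments also called 0 members. With median-of-ratios scaling, 538 genes were higher and 395 lower in place of 398 and 523, again with 0 members. The 95% interval lay above 0 for Atf4 (log2 difference 0.29, interval 0.08 to 0.50, adjusted p = 0.0983) and Trib3 (0.28, interval 0.02 to 0.53, adjusted p = 0.158). It did so for Psat1 too (0.14, interval 0.01 to 0.27, adjusted p = 0.172, limma). How many of all genes had such an interval was not counted, so these 3 say nothing about the members as a group. The samples of FAK-WT lay above those of FAK-R454 for each of them. Genes of chromosome 15 had a median 0.20 above the others in this comparison, and with chromosome centring Atf4 was at 0.14 (adjusted p = 0.344 from limma). For Phgdh the difference was 0.03 with an interval of -0.29 to 0.34, and for Hspa5 -0.15 with an interval of -0.36 to 0.06, and both intervals hold 0 as well as differences of that size. The count rested on 1 library. Without FAK-WT replicate 3, 5 members were called higher in FAK-WT, namely Atf4 (0.36, adjusted p = 0.0013), Trib3 (0.35, adjusted p = 0.0204), Asns (0.19, adjusted p = 0.013), Phgdh (0.16, adjusted p = 0.0216) and Psat1 (0.15, adjusted p = 0.0455, limma). Calls over all genes rose in the same setting, to 1505 higher and 1807 lower of 11793.

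**Figure D3:**
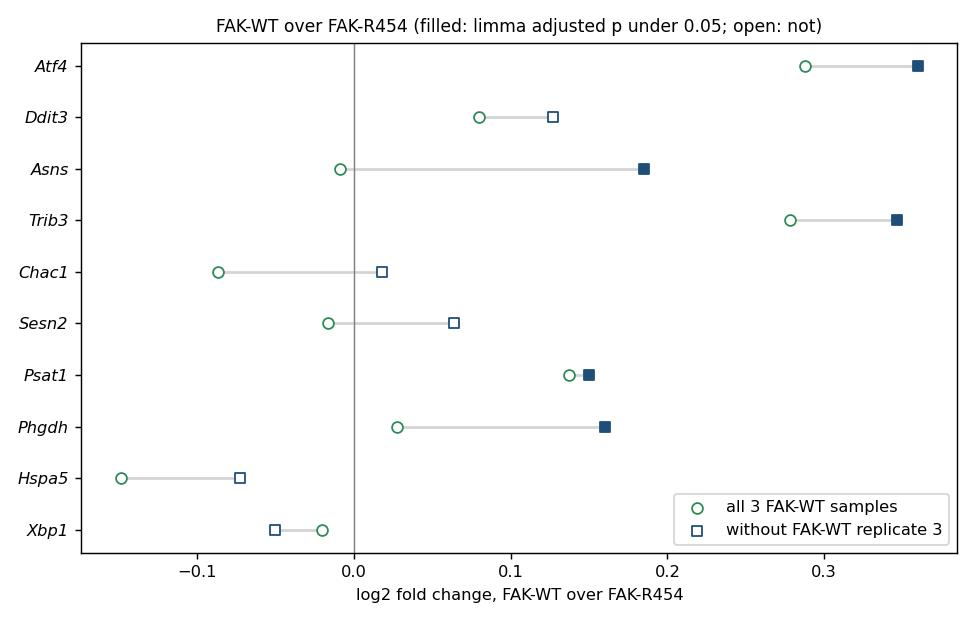
Log2 fold change of FAK-WT over FAK-R454 (x axis) of the 10 genes (y axis), with all 3 FAK-WT samples (circles) and without FAK-WT replicate 3 (squares). Filled symbols had an adjusted p under 0.05 in limma. No circle is filled, and 5 squares are, those of Atf4, Asns, Trib3, Psat1 and Phgdh.

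Most members were lower in FAK-WT than in parental KMF cells. In FAK-WT over KMF, 8 members were lower and 0 higher, against 23.5% and 18.2% of 11847 genes, and 2 were lower by at least 2-fold, against 5.93% of genes changed 2-fold. Those were Chac1 (log2 fold change -1.64, standard error 0.12, adjusted p = 8.56e-05) and Phgdh (-1.18, standard error 0.11, adjusted p = 2.55e-04, limma). With chromosome centring Phgdh was at -0.83 and Asns at -1.04, and Asns passed 2-fold also without FAK-WT replicate 1 or 2 (down to -1.04). Asns and Trib3 were otherwise at -0.93 and -0.92, then Ddit3 at -0.53 and Atf4 at -0.49 (adjusted p = 0.00514 for Atf4 from limma). Chromosome 15 genes had a median 0.27 above the others, and with chromosome centring Atf4 was at -0.75 (adjusted p = 7.90e-04 from limma). Hspa5 (-0.29) and Xbp1 (-0.24) were also called lower. Psat1 (-0.21, 95% interval -0.39 to -0.03, adjusted p = 0.0651) and Sesn2 (-0.20, adjusted p = 0.0937, limma) were not called. Psat1 was called lower with chromosome centring (-0.49, adjusted p = 0.00446) and without KMF replicate 2 (-0.29, adjusted p = 0.0222, limma). Hspa5 lost its call without KMF replicate 1 or 2 or FAK-WT replicate 2, and Xbp1 without KMF replicate 1 or 2 or FAK-WT replicate 1 or 2, with adjusted p-values up to 0.0739 and 0.0684. Hspa5 also lost it with chromosome centring (-0.16, adjusted p = 0.183) and with no filter on low values (adjusted p = 0.0525, limma). Without FAK-WT replicate 3 the same 8 members were called lower, where 2346 of 11857 genes were higher and 2787 lower. The members ran from -1.53 for Chac1 and -1.05 for Phgdh to -0.22 for Hspa5. Between them were Trib3 at -0.86, Asns at -0.73, Ddit3 at -0.48, Atf4 at -0.42 and Xbp1 at -0.27. Psat1 (-0.20) and Sesn2 (-0.12) were not called.

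Beside the members, 124 further gene symbols of the same pathways were listed in 8 groups, of which 122 were in the table. The other 2 were newer symbols of Vimp and Selk, which were in the table. Their counts in KMF over FAK KO stand beside 23.1% of all genes higher and 28.7% lower. In KMF over FAK KO, aminoacyl-tRNA synthetases, which charge tRNAs with amino acids, were higher for 13 of 18 and lower for 0, with a median log2 fold change of 0.35 beside -0.05 over all genes tested. Cars rose by 1.13 (from 20.4 to 45.0 FPKM) and Mars by 0.84 (from 35.5 to 63.7 FPKM). Of the 14 tested genes of serine, glycine and folate synthesis, 8 were higher and 3 lower (median 0.37), led by the mitochondrial folate enzymes Mthfd2 (1.30) and Shmt2 (1.17), while the cytosolic Shmt1 was lower (-0.59). Amino acid transporters were higher for 5 of 9 and lower for 1, with the neutral amino acid carriers Slc1a4 at 0.66 and Slc1a5 at 0.62. Among stress transcription factors 5 of 11 were higher and 3 lower, with the ATF4 relative Atf5 at 1.63 and Creb3l2 at -1.05. Stress-induced effectors gave 4 of 13 in each direction. The secreted factors Stc2 and Vegfa rose by 2.49 and 1.88, while Gdf15, often used as a readout of the integrated stress response, fell by 1.25. The sensors and eIF2 controls were higher for 3 of 14 and lower for 5, with the eIF2α phosphatase subunit Ppp1r15b at 0.71. ER chaperones were higher for 1 of 17 (Dnajc3, 0.49) and lower for 3 (among them Pdia4, -0.55), and genes of ER-associated degradation and secretion for 3 and 7 of 20 (median -0.14). Lower chaperones ran from 2 to 6 with 1 sample left out (6 without FAK KO replicate 2), and lower genes of the other group from 4 (without FAK KO replicate 3) to 10 (without KMF replicate 3).

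In β-catenin ΔGSK over FAK KO, where 23.7% of all genes were higher and 34.4% lower, 10 of 14 genes of serine, glycine and folate synthesis were higher and 1 lower (median 0.37, beside -0.09 over all genes), led by Mthfd1l (1.24) and Pck2 (0.77). ER chaperones were lower for 13 of 17 and higher for 1 (median -0.39), and ER-associated degradation and secretion genes lower for 14 of 20 and higher for 0 (median -0.25). The latter count fell to 8 with median-of-ratios scaling and 9 with chromosome centring. The BiP cochaperone Dnajb9 fell from 22.1 to 10.9 FPKM (log2 fold change -1.03, adjusted p = 9.98e-04 from limma), Derl3 fell by 1.11 and Vimp by 0.82. The 1 chaperone-group gene that rose was the oxidase Ero1l (1.00, adjusted p = 0.00435 from limma), while its paralog Ero1lb fell by 0.97. The sensors and eIF2 controls were higher for 3 of 14 (among them Eif2b4, 0.41, and Eif2b5, 0.40) and lower for 6 (among them the PERK gene Eif2ak3, -0.57). Synthetases were higher for 5 of 18 and lower for 2, transporters for 2 and 2 of 9, with Slc1a5 at 1.22 and the cystine carrier Slc7a11 at -0.86. Transcription factors went both ways, with 4 of 10 higher and 4 lower, Atf3 at 0.77 and Nupr1 at -1.60. Of the effectors, 5 of 12 were higher and 3 lower, with the proapoptotic Bcl2l11 at 1.56.

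In FAK-WT over FAK KO, where 15.6% of all genes were higher and 25.2% lower, ER chaperones were lower for 8 of 17 and higher for 2 (median -0.23, beside -0.08 over all genes), and ER-associated degradation and secretion genes lower for 9 of 20 and higher for 1 (median -0.20). Dnajb9 fell by 0.46 and the mannosidase-related Edem3 by 0.40. The synthetases gave 2 higher (Vars 0.46, Cars 0.33) and 2 lower (among them Iars, -0.24) of 18, and 4 and 1 without FAK-WT replicate 3. In that setting the chaperone counts stayed at 8 lower and 2 higher, and the degradation and secretion group had 8 lower and 1 higher. The counts of these 2 groups depended on the setting and ran up to 10 lower genes in each. Lower chaperones numbered 2 without FAK KO replicate 3, 4 without FAK-WT replicate 2, 5 without FAK KO replicate 1, 4 with median-of-ratios scaling and 1 with chromosome centring, and the other group fell to 3 without FAK KO replicate 3 or FAK-WT replicate 2. The serine, glycine and folate group had 2 higher and 4 lower of 14. Those counts were 4 and 3 without FAK-WT replicate 3, 2 and 1 without FAK KO replicate 2, and 0 and 1 without FAK KO replicate 1 or 3. Transporters were higher for 2 of 9 and lower for 4, with Slc1a5 at 0.76 and Slc7a11 at -0.77. Transcription factors were higher for 1 of 11 (Nupr1, 0.66) and lower for 2 (among them Creb3l2, -0.62), effectors for 3 and 2 of 12, and sensors for 1 and 4 of 14. In FAK-R454 over FAK KO, calls were few, and 9.78% of all genes were higher and 9.89% lower. Transporters were lower for 5 of 9 and higher for 0 (Slc7a11 -0.99, Slc6a9 -0.52), and the other groups had at most 3 calls in a direction. Of the effectors Gdf15 fell by 0.69. ER chaperones gave 0 higher and 1 lower of 17, with a median of -0.14 beside -0.03 over all genes. With 1 sample left out, lower transporters ran from 2 (without either FAK-R454 sample) to 6 (without FAK KO replicate 1), lower chaperones from 0 to 6 and lower degradation and secretion genes from 0 to 5, with both maxima without FAK KO replicate 2, where 2459 of 11833 genes were lower.

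**Figure D4:**
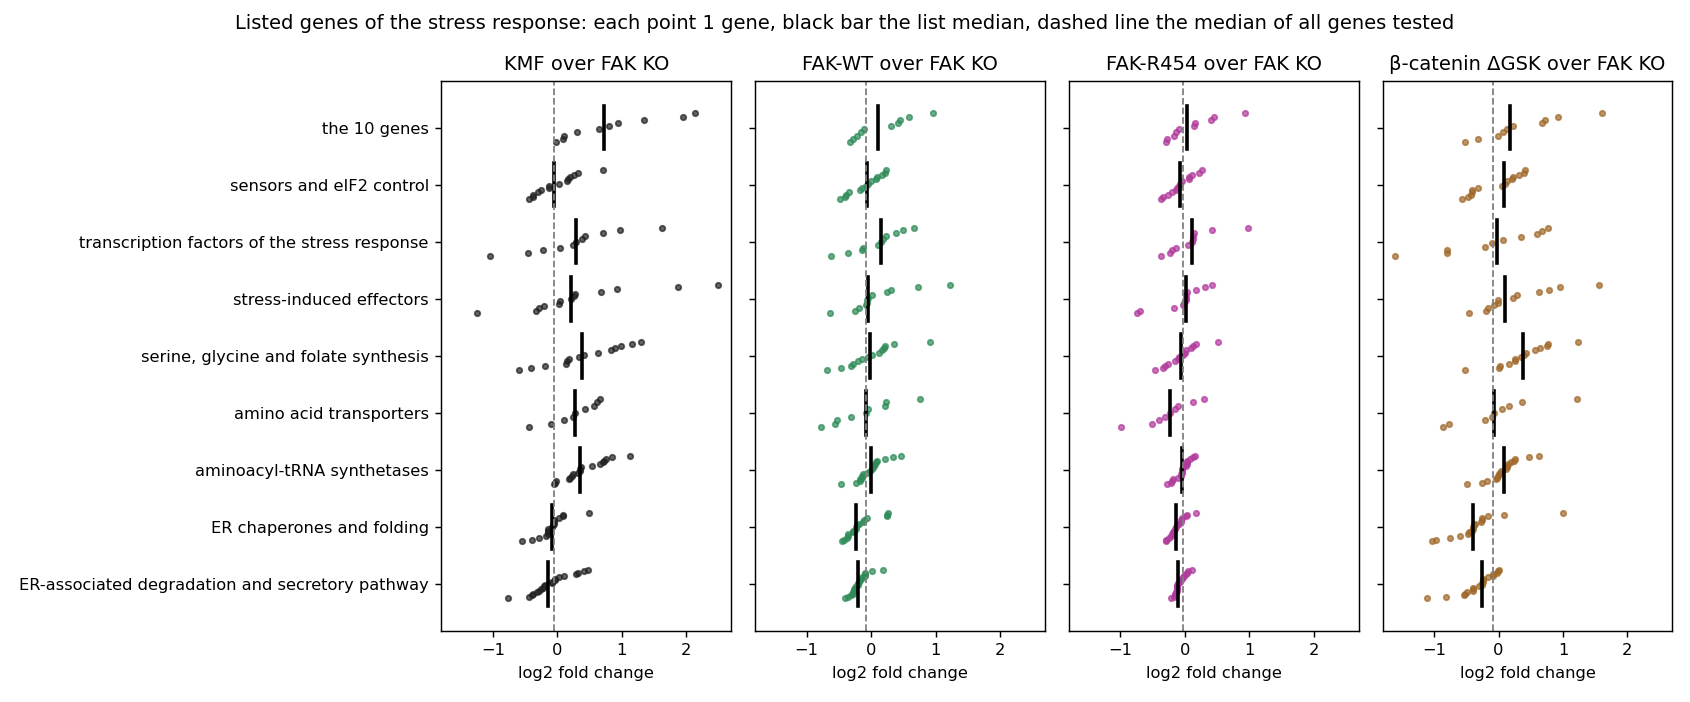
Log2 fold change over FAK KO (x axis) of the 10 genes and the genes of 8 pathway lists (y axis) in 4 lines, each point 1 gene, with the list median (black bar) and the median of all genes tested (dashed line). The median of the synthetases lies right of the dashed line in KMF, and the medians of the chaperone and degradation groups lie left of it in β-catenin ΔGSK.

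Between FAK-WT and FAK-R454, 4 of the 115 listed genes tested were higher and 3 lower in limma, against 3.38% and 4.44% of all genes, each of them losing its call in 2 or more alternatives. Without FAK-WT replicate 3, 5 of 18 synthetases were higher and 0 lower, and 5 of 17 chaperones were lower and 1 higher. Degradation and secretion genes were then lower for 7 of 20 and higher for 1, and effectors higher for 4 of 12 and lower for 1. In that setting 1505 genes of 11793 were higher and 1807 lower. In FAK-WT over KMF, where 18.2% of all genes were higher and 23.5% lower, the synthetases were lower for 11 of 18 and higher for 0 (median -0.49, beside -0.04 over all genes), with Mars at -0.91, and the serine, glycine and folate group was lower for 7 of 14 and higher for 0, with Mthfd2 at -1.36. Stress transcription factors were lower for 3 of 11 and higher for 1, with Atf5 at -1.45 (from 86.1 FPKM in KMF to 31.6 in FAK-WT) and Creb3l2 at 0.43. Other genes rose, among them Gdf15 by 1.00 and Ern1 by 0.51. Degradation and secretion genes were higher for 4 of 20 and lower for 7. These values share the KMF samples with the comparison of KMF and FAK KO.

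Over the 14 samples, the genes outside the lists whose log2 levels were most like those of Atf4 were Itga10 (Pearson r = 0.97), Parva (0.97) and Ubr2 (0.96), out of 11211 genes with a mean FPKM above 1. Like Phgdh were Cdc25b (0.99), Dgcr2 (0.98) and H2afz (0.97), and like Hspa5 were Stt3a, Uggt1 and Gtf2a2 (0.97 each). Stt3a and Uggt1 encode enzymes that act on N-glycans in the ER. By Spearman correlation, 0 of the 3 genes were shared for Atf4, 2 of 3 for Phgdh and 1 of 3 for Hspa5. The samples fall into 5 lines, so these values are descriptions that rest largely on the order of the lines.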

How the data were processed

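The authors made poly(A) RNA libraries of 14 tumorsphere samples and deposited 1 table of FPKM per gene. Their paper names TopHat2 and a HiSeq instrument, while the submitters' processing notes list CASAVA 1.8, STAR 2.5 and mm10 and the design names a NovaSeq, so the aligner is uncertain. The deposited FPKM were used without further scaling. Depth was recovered from FPKM times gene length in units of 1 fragment, where 100% of values came out whole within 0.01. Strand use in counting is not given in the sources used here.

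Lines were compared with limma 3.58.1 in R 4.3.3 (moderated with a mean trend) on log2(FPKM + 0.1), which understates changes of low genes. Tests used genes with a mean FPKM above 1 in 1 of the 2 lines and Benjamini-Hochberg adjustment over all of them. Exact tests of 3 against 3 samples cannot go below p = 0.1. The steps were tested on simulated data. These had the same spread setting for all genes and no library set apart, so they checked the steps and not the calls made here. Alternatives were a pseudocount of 1, no filter, a filter of 5 FPKM, median-of-ratios scaling, centring by chromosome, 1 fit of 5 lines, no trend, limma-voom on the recovered fragments, a replicate block, a threshold of 2-fold, and leaving out each sample. The labels give no batch or date.

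The members and lists were chosen with earlier results of these data known, so no list is independent support. Named genes were the members and, per list and comparison, up to 2 of the largest rises and falls among called genes whose lines did not overlap, together with the 3 genes most like Atf4, Phgdh and Hspa5. Genes of 1 chromosome are not reported here. Lists were described by counts and medians, with no set test. Promoter windows came from RefSeq.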

Additional observations from a re-analysis of the deposited data

How the results depend on the processing

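Of 31 called member differences, 22 kept their direction and call in every alternative other than the threshold of 2-fold, and 0 reversed. Those that lost a call somewhere were Ddit3 in KMF, FAK-WT and FAK-R454 over FAK KO, Asns and Psat1 in FAK-R454 over FAK KO, Atf4 and Hspa5 in FAK-WT over FAK KO, and Hspa5 and Xbp1 in FAK-WT over KMF. For most the cause was not tested. Leaving out samples lowers their number. The FAK-R454 line has 2 samples, and the effect of that number on its calls was not tested.

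At a threshold of 2-fold, the members called numbered 3 for KMF over FAK KO, 1 for β-catenin ΔGSK over it, 0 for either FAK rescue line over it, and 2 for FAK-WT over KMF. Under alternatives, Phgdh in FAK-WT over FAK KO, Psat1 in KMF over FAK KO, and Asns in β-catenin ΔGSK over FAK KO and in FAK-WT over KMF also passed it, and Phgdh in FAK-WT over KMF did not with chromosome centring. In FAK-R454 over FAK KO, 4 members were called, where 1156 of all genes tested were higher and 1169 lower. With 1 fit of 5 lines 2 members were called (1016 and 1069 of all genes), and with no trend 2 (894 and 830). With 1 FAK KO sample left out, the members called ran from 2 (694 and 484 of all genes, without replicate 3) to 6 (1931 and 2459, without replicate 2). In FAK-WT over FAK-R454 the count was 0 to 5 with 1 FAK-WT sample left out, where 5 came without replicate 3. Over all genes, 64 were higher and 93 lower without FAK-WT replicate 2, and 1505 and 1807 without replicate 3. The sample numbers recur in each line, and whether they pair the samples cannot be told. Same-numbered pairs of β-catenin ΔGSK and FAK KO correlated at 0.45, 0.28 and 0.076, and those of the other comparisons at -0.25 to 0.14. With a block for these numbers, 3330 genes were higher and 4823 lower in β-catenin ΔGSK over FAK KO, in place of 2828 and 4100. A batch shared by same-numbered samples was not tested. With the replicate block 5 members were called in FAK-WT over FAK-R454, where replicate 3 of FAK-WT has no partner. Of all 11782 genes, 1567 were then higher and 1826 lower. With that block Sesn2 was also called lower in FAK-WT over KMF (adjusted p = 0.0455) and Chac1 higher in FAK-R454 over FAK KO (0.48, adjusted p = 0.0124, limma). The block lost the calls of Ddit3 in FAK-WT (adjusted p = 0.0622) and FAK-R454 (-0.29, adjusted p = 0.117) over FAK KO. That of Asns in FAK-R454 over FAK KO was lost too (-0.24, adjusted p = 0.177, limma). Over all lists, 550 of 704 counts under alternatives stayed within 1.5 times the reported one. Synthetases higher in KMF ran from 11 to 15, chaperones lower in β-catenin ΔGSK from 11 to 15, and degradation and secretion genes lower in it from 8 (with median-of-ratios scaling) to 15.

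Differences that were not called changed sign as follows (log2). With median-of-ratios scaling, Hspa5 in KMF over FAK KO was 0.0130, Atf4 in β-catenin ΔGSK over FAK KO 0.0718, and in FAK-WT over FAK-R454 Asns was 0.0352, Sesn2 0.0279 and Xbp1 0.0240. With chromosome centring the same differences were 0.0123, 0.0444, 0.160, 0.0686 and 0.0590, and Sesn2 in FAK-WT over FAK KO was 0.0103. With the replicate block, in FAK-WT over FAK-R454, Asns was 0.185, Chac1 0.0177 and Sesn2 0.0641. With 1 sample left out, Atf4 in β-catenin ΔGSK over FAK KO ran from -0.0614 to 0.0699 and Sesn2 from -0.0208 to 0.128. In FAK-WT over FAK-R454, Ddit3 then ran from -0.00101 to 0.160, Asns from -0.119 to 0.185, Chac1 from -0.218 to 0.0177, Sesn2 from -0.0641 to 0.0641, Phgdh from -0.0424 to 0.160 and Xbp1 from -0.0503 to 0.0028. Of 126 differences of other named genes, 81 were called in every alternative. With chromosome centring 5 changed sign, namely Gabarapl1 (0.0122), Slc38a1 (-0.0872), Creld2 (-0.0599) and Derl1 (-0.121) in FAK-WT over FAK KO, and Syvn1 (-0.0019) in FAK-WT over KMF.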
